A study of Mus musculus with 71 samples.

Results

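The step from the DN3a to the DN3b stage of thymocyte development was examined by comparing poly(A) RNA of 2 wild-type DN3b and 2 wild-type DN3a libraries. All genes with more than 1 TPM in at least 1 of these 4 libraries were described, which were 12013 of the 24420 genes listed. The unit TPM is a read number divided by transcript length and scaled to 1 total in every library, so that levels can be compared between genes but the depth of sequencing is lost and was unknown here. The series holds 71 samples in all, of which 17 are RNA libraries of lymphoid progenitors. All groups used here came from C57BL/6 mice by sorting, without culture. The DN3a and DN3b cells were from wild-type thymus, were lineage negative and Thy1.2+ with high CD25 and no CD44, and were separated by CD28 and CD71, which were both absent from DN3a and present on DN3b cells. The further groups used below are 2 libraries of DN3a cells from *Rag2*-/- mice and, as a description of earlier stages, 2 libraries of LMPP (multipotent lymphoid-primed progenitors of the bone marrow) and 3 each of the thymic DN1, DN2a and DN2b stages, all wild type. The methods give only a broad age range for the mice of the flow cytometry, while the age and number of the mice behind each library and any pooling are not given in the sources used here, and the labels do not say that replicates came from separate mice, so the p-values measure the spread between these libraries, which may be technical. The experiment numbers in the labels differ between the stages, so that stage and experiment cannot be told apart.

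DN3 thymocytes rearrange the T cell receptor (TCR) beta locus with the RAG recombinase, under continued stimulation of Notch1 by ligands of the thymic epithelium. A productive beta chain pairs with the invariant pre-TCR alpha chain and the CD3 chains to form the pre-TCR. Its signal, known as beta-selection, rescues the cell from death, stops further beta rearrangement, and starts a burst of proliferation on the way to the CD4 CD8 double-positive (DP) stage. DN3a cells are mostly cells before this checkpoint and DN3b cells are mostly cells that have just passed it, whereas DN3a cells of *Rag2*-/- mice cannot rearrange the locus and lack the pre-TCR.

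The markers of the sort gates are given as a description, since the sort used them. *Il2ra*, the CD25 chain of both gates, was at 1573 and 1768 TPM in DN3a and 221 and 290.4 TPM in DN3b cells, *Thy1* at 3859.5 and 3545 TPM in DN3a and 4462 and 4247 TPM in DN3b cells, and *Cd44*, excluded by both gates, at 1.91 and 1.19 TPM in DN3a and 0.383 and 0.240 TPM in DN3b cells. *Cd28* was at 18.3 and 17.2 TPM in DN3a and 29.4 and 23.3 TPM in DN3b cells, and *Tfrc*, which encodes CD71, at 28.7 and 27.8 TPM in DN3a and 46.3 and 54.1 TPM in DN3b cells. Both markers that separate the gates were thus detected in DN3a cells and were higher in both DN3b libraries. *Mki67*, a marker of cycling cells, was at 47.8 and 76.8 TPM in DN3a and 261 and 315 TPM in DN3b cells. Replicates correlated with r = 0.987 in DN3a and 0.990 in DN3b cells, and their SD on the log2 scale was 0.19 and 0.20 over the 9514 genes above 5 TPM. DN3a replicate 1 stood apart in 7 genes that exceeded replicate 2 by more than 10-fold, namely the early-response factors *Fos*, *Fosb*, *Junb* and *Klf4*, the heat shock genes *Hspa1a* and *Hspa1b*, and *Ifng*. Replicate 2 exceeded replicate 1 as strongly at *Capn11*, *Mir6989* and *Snord89*. Of 51 listed markers of B, myeloid, dendritic, NK, erythroid and stromal cells, 33 did not exceed 1 TPM in any of the 4 libraries, including the B cell genes *Pax5* and *Cd79a*, the myeloid genes *Csf1r*, *Mpo* and *Itgam* and the epithelial genes *Krt5* and *Foxn1*. The others did, and *Gzma*, *Nkg7*, *Epcam*, *Cd79b* and *Pecam1* exceeded 100 TPM in at least 1 library. Names that end in a tag, IMP_OVL, whose meaning is not given in the sources, belonged to 1861 genes tested, and their levels are less certain. Among them were *Notch1*, *Lck*, *Lat*, *Cd247*, *Ccnd3*, *Cdc20*, *Eno1* and *Tpi1*. The tag is also carried by *Cad*, *Shmt2*, *Nhp2*, *Cd81*, *Cd27*, *Nab2*, *Dclre1c*, *Mxd3*, *Ccna2*, *Pfkp*, *Rbl2*, *Arpp21*, *Mir6907*, *Mir7674* and *Mir6955*.

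Expression changed at most genes. In DN3b relative to DN3a cells, 2462 genes were higher and 5999 lower with an adjusted p under 0.05, which are 20.5% and 49.9% of the genes tested. The thresholds of the study, which also ask for more than a 3-fold difference and a stage mean over 5 TPM, left 335 genes that rose (2.79%) and 1180 that fell (9.82%). The median log2 fold change of all genes was -0.42 on TPM, which divide a fixed total, and the genes called higher took 31.6 and 32.0% of all TPM in DN3a and 53.2 and 53.5% in DN3b cells. Median-of-ratios scaling, which matches the typical gene between libraries instead of the total, added 0.32 to the log2 fold changes. It gave 3778 higher and 4392 lower genes (31.4% and 36.6%) and, past the thresholds, 512 higher and 784 lower genes (4.26% and 6.53%). All 2462 genes called higher on TPM were also called higher with it, while 1607 of those called lower were not called lower and none was called higher. Fold changes were computed from log2(TPM + 0.1), so that those of low genes are understated, and the counts of a list on TPM are followed, in brackets, by those after this rescaling. In bulk RNA of sorted cells, fewer cells of a type and less RNA per cell cannot be told apart.

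**Figure D1:**
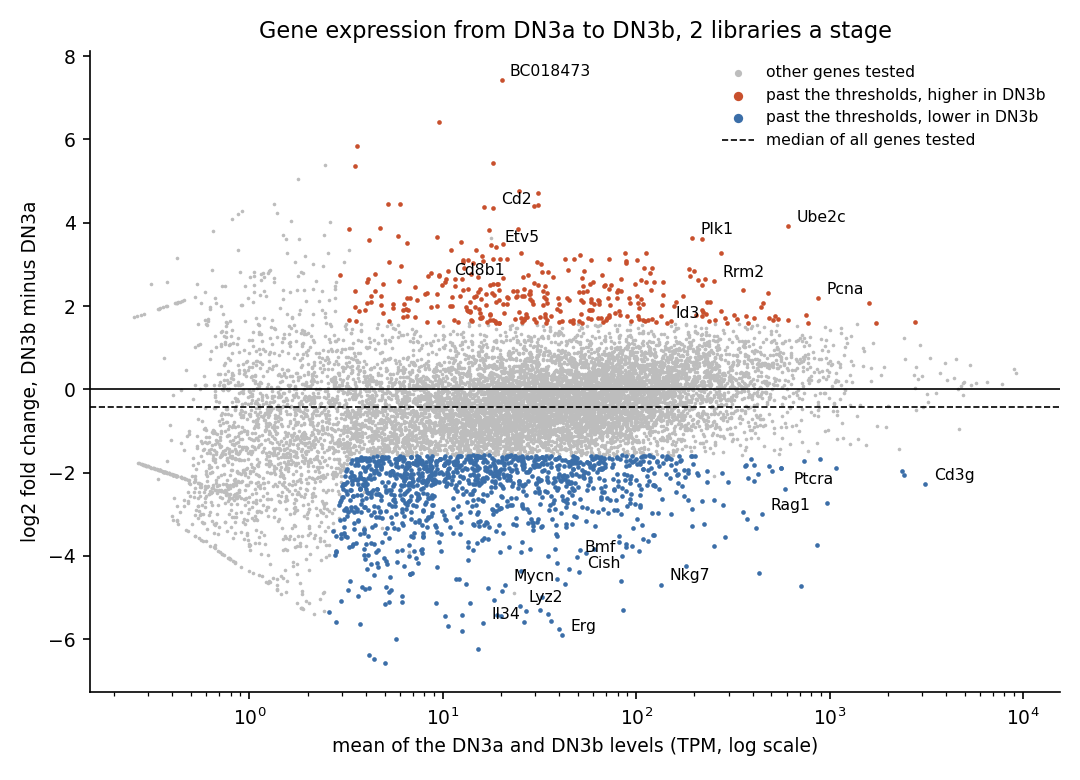
Each point is 1 of the 12013 genes, placed by its mean level over the 2 stages (x axis, TPM on a log scale) and its log2 fold change from DN3a to DN3b (y axis, 2 libraries a stage). Of the coloured genes past the thresholds, 335 lie above and 1180 below, and the dashed median of all genes lies at -0.42.

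The largest rises past the thresholds were led by *BC018473*, which went from 0.0608 and 0.0821 TPM in DN3a to 12.8 and 67.6 TPM in DN3b cells (log2 fold change 7.43, SE 0.71, adjusted p = 0.000153). The 15 largest also held 6 clustered histone genes (*Hist1h3c*, *Hist1h2ai*, *Hist1h3h*, *Hist1h2bj*, *Hist1h2ag* and *Hist1h2bk*), whose mRNAs are mostly not polyadenylated and are only partly captured in poly(A) RNA. *Cd2*, an adhesion receptor of T cells, rose from 2.18 and 1.17 to 32.6 and 36.6 TPM. *Prdx4*, a peroxiredoxin of the secretory pathway, rose from 2.26 and 2.92 to 62.4 and 51.2 TPM, and *Ube2c*, which charges ubiquitin for the anaphase-promoting complex, rose from 61.3 and 91.6 to 1138 and 1137 TPM. The other genes among the 15 were *H2-Q2*, *Inf2*, *Mir7082*, *Inppl1* and *Eno1*, of which *Mir7082*, *Inppl1* and *Eno1* carry the tag. *Eno1*, a glycolytic enzyme with processed copies in the genome, was listed at only 0.327 and 0.552 TPM in DN3a and 10.1 and 13.1 TPM in DN3b cells, so that its rise is uncertain.

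The largest falls included *Erg*, an ETS factor of stem and progenitor cells, which dropped from 80.2 and 82.7 TPM in DN3a to 0.998 and 1.60 TPM in DN3b cells (log2 fold change -5.90, SE 0.22, adjusted p = 1.3e-05). Both DN3b libraries thus lay far below both DN3a libraries. *Trim16*, a ubiquitin ligase, fell from 25.1 and 35.4 to 0.389 and 0.222 TPM, and *Il34*, a ligand of the macrophage growth factor receptor, fell from 26.6 and 36.7 to 0.408 and 0.720 TPM. *Khdc1a* fell from 55.1 and 102 to 1.24 and 1.35 TPM and the mucin *Muc13* from 23.7 and 16.6 to 0.375 and 0.344 TPM. *Ephx3*, *Prss30*, *Gm5111*, *Fbxw10* and *Gdpd3* fell by 5.57 to 6.00 on the log2 scale, and the 2 DN3a libraries of *Gdpd3* differed, at 81.5 and 21.6 TPM. The remaining 5 of the 15 were the small RNA genes *Mir6907*, *Mir761*, *Snord19*, *Mir7674* and *Mir6955*, of which only *Mir7674* was above 0 in a DN3b library (log2 fold change -5.79, from -7.88 to -3.70 with 1 library left out, where its adjusted p was up to 0.133). Small RNAs are not captured by poly(A) selection as mature molecules, and these names report reads over their loci.

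Genes of mitosis rose almost throughout. Of 57 genes of mitotic kinases, spindle, kinetochore and cytokinesis, 56 rose and 1 fell, against 20.5% of all genes tested that rose (2.79% past the thresholds), and 51 passed the thresholds of the study. Their median log2 fold change was 2.51, and with median-of-ratios scaling again 56 were higher and none was lower. *Plk1*, a kinase that drives mitotic entry and spindle assembly, was at 24.9 and 33.5 TPM in DN3a and 345 and 376 TPM in DN3b cells (log2 fold change 3.64, SE 0.15, adjusted p = 1.3e-05). *Aurkb*, the kinase of the chromosomal passenger complex, was at 28.8 and 38.1 TPM in DN3a and 412 and 395 TPM in DN3b cells. *Cdc20*, the activator of the anaphase-promoting complex, was at 50.3 and 51.8 TPM in DN3a and 514 and 480.4 TPM in DN3b cells. *Ccnb1*, the cyclin of mitotic entry, was at 3.35 and 6.39 TPM in DN3a and 39.1 and 53.2 TPM in DN3b cells, and its kinase *Cdk1* at 15.7 and 22.9 TPM in DN3a and 134 and 183 TPM in DN3b cells. Both DN3b libraries lay above both DN3a libraries at each of these genes, and the stages did not overlap at 85.6% of all genes tested. The exception was *Smc4*, a core subunit of condensin, at 174 and 175 TPM in DN3a and 156 and 132 TPM in DN3b cells (log2 fold change -0.28, adjusted p = 0.0404, adjusted p up to 0.205 with 1 library left out), which turned to 0.037 with median-of-ratios scaling. The other subunits *Smc2*, *Ncapd2* and *Ncaph* rose by 1.50, 1.78 and 1.87 on the log2 scale.

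The promoters of these genes were examined because they moved together. A window from 250 bases before to 50 bases after the start site was taken from RefSeq on GRCm38.p6 by gene symbol, for genes with a single such window, which were 6985 of the genes tested and 46 of the mitosis genes. The letters TTTGAA, known as the cell cycle genes homology region of G2 and M phase promoters, stood on either strand in 32 of these mitosis windows (69.6%), against 11.3% over the genes tested and 18.5% over all 22862 such windows. CCAAT, the site of the factor NF-Y, was in 67.4% of the mitosis windows against 40.0% over the genes tested. Both stood in 58.7% against 4.8%. Printed are the 4 mitosis genes with the largest rise among those holding both, after genes of 1 chromosome were set aside before ranking. Each sequence runs from 120 bases before the start site, 5′ to 3′ on the strand of the gene. Matches of either motif on either strand are in capitals.
Ube2c, chr2:164769809-164769978, plus strand: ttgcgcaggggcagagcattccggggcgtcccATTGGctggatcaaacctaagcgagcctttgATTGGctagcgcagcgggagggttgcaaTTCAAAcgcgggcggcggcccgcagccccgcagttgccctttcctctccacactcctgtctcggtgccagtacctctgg
Plk1, chr7:122159315-122159484, plus strand: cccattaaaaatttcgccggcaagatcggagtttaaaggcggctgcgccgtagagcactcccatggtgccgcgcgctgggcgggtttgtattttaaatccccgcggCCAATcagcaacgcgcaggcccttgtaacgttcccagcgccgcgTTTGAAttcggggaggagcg
Cdc20, chr4:118437294-118437463, minus strand: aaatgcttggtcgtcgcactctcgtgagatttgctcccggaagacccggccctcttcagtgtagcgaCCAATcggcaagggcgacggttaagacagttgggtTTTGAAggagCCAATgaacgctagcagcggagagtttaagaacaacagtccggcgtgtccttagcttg
Espl1, chr15:102296173-102296342, plus strand: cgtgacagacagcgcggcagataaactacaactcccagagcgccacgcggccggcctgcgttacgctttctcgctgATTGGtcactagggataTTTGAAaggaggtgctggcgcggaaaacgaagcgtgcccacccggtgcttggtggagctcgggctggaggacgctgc
The TTTGAA match begins at position -29 in *Ube2c*, where it stands inverted as TTCAAA, and at -27 in *Espl1*, the separase that cleaves cohesin, counted from the start site as 0. In *Cdc20* it begins at -18, and in *Plk1* at 30, after the start site. Among genes past the thresholds, 35.6% of 194 windows of higher genes and 10.5% of 645 windows of lower genes held TTTGAA. The higher genes include 51 genes of the mitosis list, so the 35.6% is not separate from the share of that list. The letters GCGGGAA, a core of sites of E2F factors, stood in 41.9% of 31 windows of the replication genes described next, against 4.35% of the mitosis genes and 9.23% over the genes tested. Matches of different motifs can share at most 1 base at their ends, no test was made, and a match is a description and not a site.

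DNA replication genes also rose, by less. Of 46 genes of origin licensing, fork and nucleotide supply, 45 rose and none fell (after rescaling, 46 rose and none fell), with a median log2 fold change of 1.28, and 13 passed the thresholds. For comparison, 20.5% of all genes tested rose (after rescaling, 31.4%), and 2.79% rose past the thresholds. The 1 not called was *Uhrf1*, a reader of hemimethylated DNA, which was at 463 and 554 TPM in DN3a cells and at 580.5 and 594 TPM in DN3b cells. *Rrm2*, the small subunit of ribonucleotide reductase, was at 65.0 and 79.8 TPM in DN3a and 416 and 454 TPM in DN3b cells, and *Pcna*, the sliding clamp of the polymerases, at 288 and 336 TPM in DN3a and 1431 and 1424 TPM in DN3b cells (log2 fold changes 2.59 and 2.20). *Gmnn*, the inhibitor of licensing, rose from 55.2 and 66.4 to 246 and 273 TPM. The subunits of the MCM helicase rose by less, from 0.57 for *Mcm6* to 1.71 for *Mcm5*. In DN3a cells, *Mcm6* was at 414 and 478 TPM and the mitotic checkpoint kinase *Bub1* at 2.79 and 4.02 TPM. A link between the level in DN3a cells and the size of a rise was not tested.

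Among 24 regulators of G1 and S phase, 15 rose and 5 fell (after rescaling, 16 rose and 5 fell), and the cyclins D went in opposite directions. Beside this list and the inhibitors below, 20.5% of all genes tested rose and 49.9% fell (after rescaling, 31.4% and 36.6%). *Ccnd3*, the D cyclin known to be needed for pre-TCR driven expansion, rose from 257 and 222 to 657 and 582 TPM (log2 fold change 1.37, SE 0.10, adjusted p = 5.7e-05). *Ccnd2* fell from 301 and 357 to 76.2 and 87.0 TPM (log2 fold change -2.01, SE 0.11, adjusted p = 2.6e-05). Their kinases differed likewise, with *Cdk4* higher at 854 and 861 TPM in DN3a against 1513 and 1508 TPM in DN3b cells and *Cdk6* lower at 293 and 353 against 137 and 136 TPM. The libraries of the stages did not overlap at any of these 4 genes, as at 85.6% of all genes tested. The cyclins E and A and their transcription factors rose, with *Ccne1* at 2.47, *Ccna2* at 2.92, *E2f1* at 1.21 and *E2f8* at 2.49 on the log2 scale. The pocket protein *Rbl2* and *Tfdp2*, a partner of E2F, fell by 1.47 and 1.62. Of 4 inhibitors of cyclin-dependent kinases tested, 2 rose and 2 fell (after rescaling, 2 rose and 2 fell). *Cdkn1a* (p21) fell from 183 and 204 to 16.6 and 24.1 TPM and *Cdkn1b* (p27) from 114 and 105 to 58.4 and 56.5 TPM, whereas *Cdkn2c* (p18) rose from 30.2 and 19.5 to 49.4 and 42.5 TPM (adjusted p up to 0.0711 with 1 library left out).

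Genes of growth and biosynthesis rose with smaller changes. Of 48 genes of ribosome biogenesis, 36 rose and none fell (median log2 fold change 0.56), and all 48 were called higher with median-of-ratios scaling. For comparison, 20.5% of all genes tested rose and 49.9% fell (after rescaling, 31.4% and 36.6%). *Fbl*, the methyltransferase of the nucleolus, rose from 33.7 and 31.8 to 106 and 110.3 TPM and *Nhp2*, a protein of pseudouridylation particles, from 305 and 278 to 769 and 768 TPM. Of 23 genes of one-carbon metabolism and nucleotide synthesis, 20 rose and 1 fell (after rescaling, 21 rose and 1 fell). *Cad*, which carries the first steps of pyrimidine synthesis, rose from 100.3 and 103 to 355 and 358 TPM. *Mthfd2*, a mitochondrial folate enzyme, rose from 45.3 and 47.5 to 141 and 174 TPM, and *Shmt2*, which feeds it from serine, from 274 and 270.3 to 784 and 805 TPM. The member that fell was *Prps2*, at 164 and 185 TPM in DN3a and 116 and 112 TPM in DN3b cells, while its paralogue *Prps1* rose from 58.1 and 64.1 to 86.9 and 94.2 TPM.

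Nutrient uptake and glycolysis changed unevenly. Of 14 transporters, 8 rose and 3 fell (after rescaling, 10 rose and 1 fell). Beside each list of this paragraph, 20.5% of all genes tested rose and 49.9% fell (after rescaling, 31.4% and 36.6%). Both chains of the large neutral amino acid transporter rose, *Slc7a5* from 117 and 110.5 to 313 and 321 TPM and *Slc3a2* from 85.3 and 77.3 to 180.5 and 179 TPM. *Slc16a1*, a lactate transporter, rose by 1.38 on the log2 scale. The glucose transporter *Slc2a1* was at 36.3 and 30.1 TPM in DN3a and 37.3 and 33.8 TPM in DN3b cells and was not called (log2 fold change 0.10, adjusted p = 0.493). Of 18 glycolytic genes, 11 rose and 5 fell (after rescaling, 12 rose and 4 fell), and isoforms went apart. *Ldha*, *Pfkp* and *Hk2* rose by 1.49, 1.92 and 1.16 on the log2 scale, whereas *Ldhb*, *Pfkm* and *Hk1* fell by 1.21, 0.42 and 0.92, and *Pfkm* was not called with median-of-ratios scaling (adjusted p up to 0.0644 with 1 library left out). Of 23 genes of sterol synthesis, 2 rose and 10 fell (after rescaling, 5 rose and 5 fell), with a median log2 fold change of -0.32, near that of all genes.

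Families of housekeeping genes were counted by their symbols, also after the values had been seen. For comparison, 20.5% of all genes tested rose and 49.9% fell (after rescaling, 31.4% and 36.6%). Of 88 subunits of oxidative phosphorylation, 69 rose and 9 fell (after rescaling, 78 rose and 6 fell), with a median log2 fold change of 0.68. Of 39 proteasome subunits, 32 rose and 4 fell (after rescaling, 33 rose and none fell). Of 15 tubulins, 12 rose and 3 fell (after rescaling, 12 rose and 1 fell). Cytoplasmic ribosomal proteins had the smallest median of these families, with 45 of 97 higher and 18 lower (after rescaling, 69 rose and 8 fell) and a median log2 fold change of 0.20. Of 53 clustered histone genes, 37 rose and 6 fell (after rescaling, 37 rose and 5 fell), with a median of 2.36 and summed levels of 226 and 170.3 TPM in DN3a and 578 and 528 TPM in DN3b cells. Against *Rag2*-/- DN3a cells, with 583 and 860.1 TPM, the direction was the opposite, with 11 higher, 23 lower and a median of -0.68. In that comparison, 28.8% of all genes tested were higher and 40.7% lower. The DN2b libraries summed to 1535 to 2892 TPM, above both DN3b libraries.

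In the Myc network, 2 of 11 genes rose and 7 fell (after rescaling, 3 rose and 5 fell), beside 20.5% and 49.9% of all genes tested. *Myc*, a driver of growth and proliferation, rose slightly and was at 685 and 728 TPM in DN3a and 784 and 882 TPM in DN3b cells (log2 fold change 0.24, SE 0.081, adjusted p = 0.0364, adjusted p up to 0.244 with 1 library left out). Its partner *Max* was at 226 and 240.4 TPM in DN3a and 249 and 253 TPM in DN3b cells (log2 fold change 0.11, adjusted p = 0.231). *Mycn* fell from 37.4 and 43.5 to 1.10 and 1.95 TPM, far below *Myc* in every library. The Mxd proteins pair with Max and oppose Myc at its sites. *Mxd4* fell from 345 and 337 to 55.8 and 38.8 TPM and *Mxd1* from 18.8 and 17.4 to 5.80 and 6.05 TPM, whereas *Mxd3* rose from 21.9 and 30.0 to 207 and 179 TPM.

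**Figure D2:**
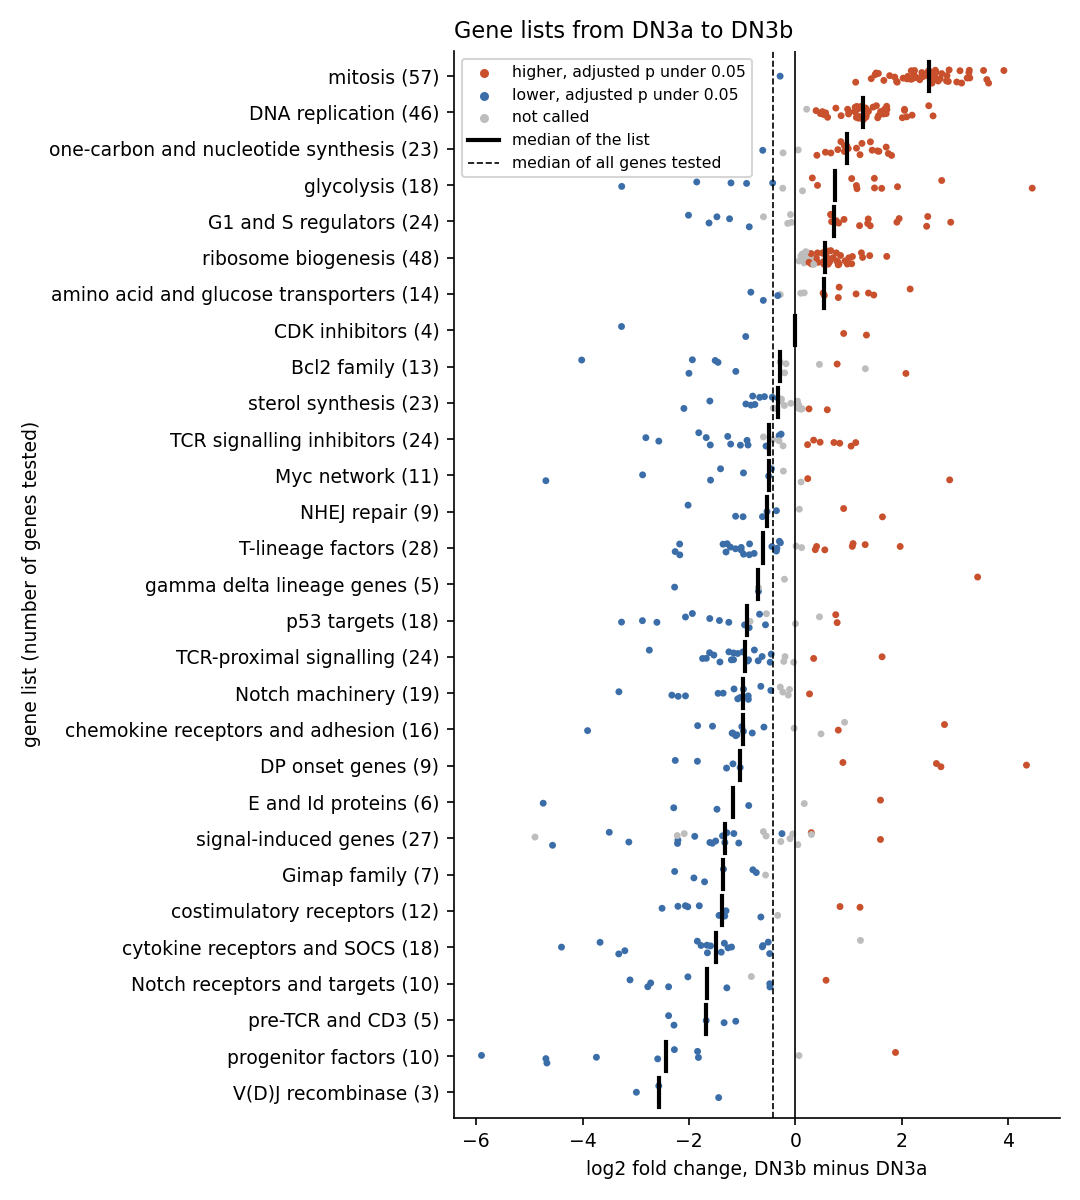
Each point is the log2 fold change of 1 gene from DN3a to DN3b (x axis, 2 libraries a stage), the rows are gene lists with the number of genes tested, and black bars are the medians of the lists. Among the lists drawn, mitosis has the highest median at 2.51 and the V(D)J recombinase the lowest at -2.57, beside -0.42 for all genes (dashed line).

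The recombinase and the chains of the pre-TCR fell. *Rag1* was at 622 and 972 TPM in DN3a and 86.9 and 111 TPM in DN3b cells (log2 fold change -2.99, SE 0.21, adjusted p = 5.4e-05), and *Rag2* at 48.7 and 75.5 TPM in DN3a and 8.97 and 11.5 TPM in DN3b cells (log2 fold change -2.57). *Dntt*, the terminal transferase that adds bases at the joints, fell from 3472 and 3214 to 1223 and 1240.1 TPM, still among the abundant transcripts. All 3 fell on both scales, and the libraries of the 2 stages did not overlap at any of them, as at 85.6% of all genes tested. Of the 9 genes that join the ends, 6 fell, 2 rose and 1 was not called (after rescaling, 3 rose and 4 fell). Over all genes tested, 49.9% fell and 20.5% rose (after rescaling, 36.6% and 31.4%). The median log2 fold change of these 9 was near that of all genes, at -0.53 against -0.42. *Dclre1c* (Artemis), the nuclease that opens hairpin ends, fell from 13.2 and 11.9 to 2.81 and 3.24 TPM, and *Polm*, a polymerase of the joints, rose from 2.16 and 2.80 to 9.68 and 6.43 TPM (adjusted p up to 0.0524 with 1 library left out). *Ptcra*, the pre-TCR alpha chain, fell from 889.5 and 1081 to 152 and 233 TPM. *Cd3g* fell from 4975 and 5383 to 952 and 1192 TPM, *Cd3d* from 1320.0 and 1402 to 388 and 468 TPM and *Cd3e* from 2181 and 2219 to 874 and 866 TPM. All 5 chains including *Cd247* (CD3 zeta) fell on both scales.

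V segments of the TCR beta locus rose while segments of the gamma locus fell. These families of segments were chosen by their symbols after the values had been seen. Beside each family, 20.5% of all genes tested rose and 49.9% fell (after rescaling, 31.4% and 36.6%). Of 21 V segments of the beta locus tested, 18 rose, 1 fell and 2 were not called (after rescaling, 19 rose and 1 fell), with a median log2 fold change of 2.17. *Trbv1* rose from 32.1 and 26.8 to 206 and 203 TPM, *Trbv14* from 9.87 and 7.46 to 67.5 and 54.7 TPM and *Trbv13-3* from 22.2 and 19.9 to 94.8 and 96.4 TPM. The exception was *Trbv13-2*, which fell from 965 and 808 to 595 and 466 TPM (adjusted p up to 0.0835 with 1 library left out) and was at 651 and 738 TPM in *Rag2*-/- DN3a cells. All listed segments summed to 729.8 and 807 TPM in *Rag2*-/- DN3a, 1371 and 1184 TPM in DN3a and 2015 and 1904 TPM in DN3b cells. Without *Trbv13-2* and the neighbouring *Trbv12-2*, a pair chosen after the values had been seen, the others summed to 23.8 and 18.5 TPM in *Rag2*-/- DN3a, 311 and 291 TPM in DN3a and 1330.5 and 1326 TPM in DN3b cells. The 3 groups did not overlap in either sum. *Trbj1-7*, the last segment of the first joining cluster, went the other way, from 196 and 196 to 7.21 and 35.6 TPM (log2 fold change -3.60, adjusted p = 0.00233, adjusted p up to 0.0956 with 1 library left out). Of 11 gamma locus segments, 10 fell and none rose (after rescaling, none rose and 9 fell), with summed levels of 2879 and 3167 TPM in DN3a and 1113 and 1029.8 TPM in DN3b cells. *Trac*, the constant segment of the alpha locus, was low, at 7.96 and 3.96 TPM in DN3a and 22.5 and 19.5 TPM in DN3b cells (log2 fold change 1.88, adjusted p = 0.00161). Of 11 alpha V segments tested, 1 rose and 4 fell (after rescaling, 3 rose and 4 fell). Of 9 alpha J segments, 1 rose and none fell (after rescaling, 1 rose and none fell). Of 7 delta segments, 1 rose and 2 fell (after rescaling, 1 rose and none fell), so that the falls were lost with the scaling. Segments are short and resemble each other, so that reads may be split between them.

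**Figure D3:**
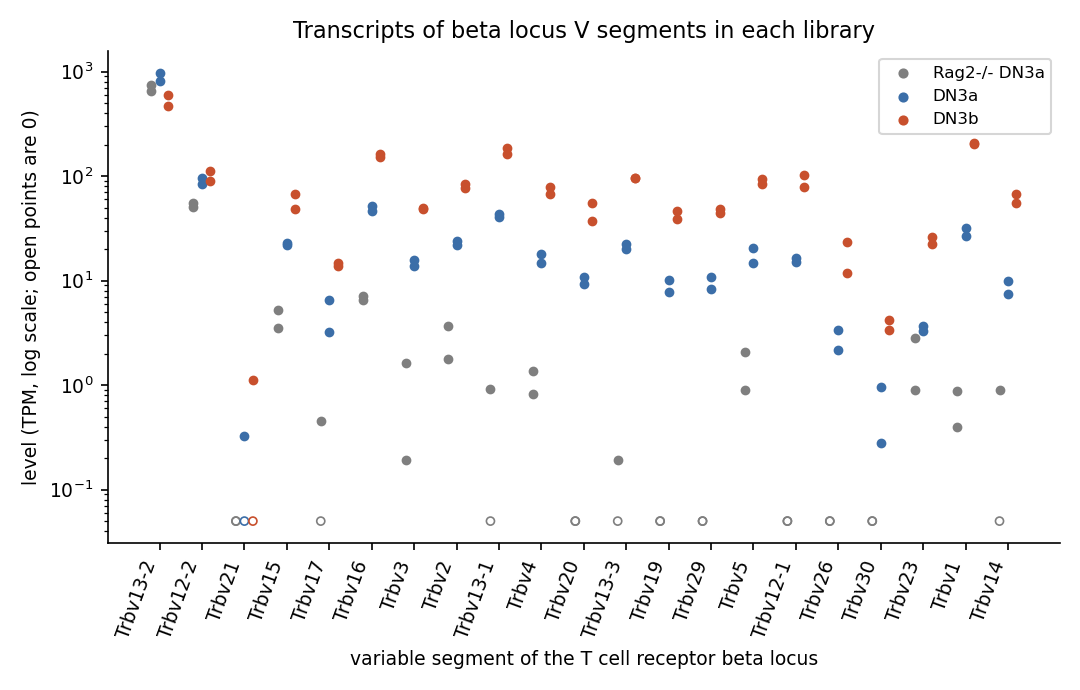
Each column is 1 V segment of the TCR beta locus and each point 1 library (y axis, TPM on a log scale, open points are 0), for *Rag2*-/- DN3a, DN3a and DN3b cells with 2 libraries each. Of 21 segments, 18 rose from DN3a to DN3b, and *Trbv13-2* at the left fell and was at 651 and 738 TPM in *Rag2*-/- cells.

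Notch receptors and their targets fell. *Notch1*, which carries the signal at this stage, was at 1213 and 1216 TPM in DN3a and 466 and 531 TPM in DN3b cells (log2 fold change -1.29, SE 0.080, adjusted p = 3.5e-05), and *Notch3*, itself a target of Notch1, at 626 and 714 TPM in DN3a and 73.6 and 81.7 TPM in DN3b cells. The repressor *Hes1* fell from 562 and 421 to 59.3 and 85.4 TPM and the ubiquitin ligase *Dtx1* from 392 and 491 to 84.1 and 139 TPM. Together with *Ptcra* and the sort marker *Il2ra*, 8 of 10 genes of the list fell and 1 rose (after rescaling, 1 rose and 6 fell), against 49.9% of all genes tested that fell. The feedback inhibitor *Nrarp* was the exception and rose from 13.9 and 17.8 to 23.0 and 24.1 TPM (log2 fold change 0.58, SE 0.15, adjusted p = 0.0113, adjusted p up to 0.0913 with 1 library left out). Of 19 genes of Notch processing and nuclear cofactors, 14 fell and 1 rose (after rescaling, 1 rose and 13 fell), with a median log2 fold change of -0.97. *Lfng*, the fringe glycosyltransferase that makes Notch1 sensitive to Delta-like ligands, fell from 129.6 and 138 to 27.0 and 26.3 TPM, whereas the related *Mfng* rose slightly, at 131 and 119 TPM in DN3a and 143 and 159 TPM in DN3b cells (log2 fold change 0.27, adjusted p = 0.0429, adjusted p up to 0.228 with 1 library left out). The coactivators *Maml2* and *Maml3* fell by 2.20 and 2.06 on the log2 scale and *Maml1* by 1.03. *Rbpj*, the DNA-binding partner of Notch, fell from 16.7 and 17.2 to 7.69 and 8.26 TPM.

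Kinases and adaptors below the pre-TCR were mostly lower, but *Zap70* rose. Of 24 genes, 19 fell and 2 rose (after rescaling, 3 rose and 16 fell), beside 49.9% and 20.5% of all genes tested. *Zap70*, a kinase that binds phosphorylated CD3 chains, rose from 83.7 and 63.9 to 241 and 214 TPM (log2 fold change 1.63, SE 0.14, adjusted p = 0.000102). Its relative *Syk* fell from 93.3 and 93.6 to 32.1 and 29.1 TPM (log2 fold change -1.61, SE 0.10, adjusted p = 3.0e-05). *Syk* was thus the higher of both in each DN3a library and *Zap70* in each DN3b library. *Lck*, the kinase upstream of both, fell from 2639 and 2454 to 1337 and 1401 TPM and the adaptor *Lat* from 2111 and 1800.2 to 884 and 813 TPM. The Tec family kinase *Tec* fell from 55.0 and 55.4 to 8.29 and 8.02 TPM.

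Inhibitors of TCR signalling went both ways. Of 24 tested, 7 rose and 13 fell (after rescaling, 7 rose and 10 fell), shares near the 20.5% and 49.9% of all genes tested. The ubiquitin ligase *Cblb* fell from 130.3 and 183 to 20.6 and 23.3 TPM and *Pag1*, which anchors the inhibitory kinase Csk, from 292 and 310.3 to 50.3 and 51.2 TPM. *Cd5*, a surface inhibitor whose level is known to follow TCR signal strength, rose from 20.2 and 13.4 to 41.4 and 31.9 TPM (adjusted p up to 0.0648 with 1 library left out), and *Spred2*, an inhibitor of the Ras pathway, from 20.3 and 19.8 to 43.5 and 39.8 TPM. *Pdcd1*, the inhibitory receptor PD-1 of the costimulatory list, rose from 32.1 and 24.5 to 76.2 and 56.2 TPM (adjusted p up to 0.0537 with 1 library left out).

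Of 27 genes listed as immediate-early and early genes of antigen receptor signals, 2 rose and 15 fell (after rescaling, 3 rose and 10 fell), beside 20.5% and 49.9% of all genes tested (31.4% and 36.6% after rescaling). Whether such signals induce each member, among them *Klf2* and *Klf4*, was not tested. Without DN3a replicate 1, 1 gene was higher and 9 were lower, and the median log2 fold change was -0.56 in place of -1.32. *Id3*, a target of the Egr factors, rose from 80.2 and 61.8 to 255 and 179 TPM (log2 fold change 1.60, SE 0.19, adjusted p = 0.000398). *Egr1*, the factor induced by the pre-TCR, was at 48.3 and 31.9 TPM in DN3a and 28.4 and 37.1 TPM in DN3b cells (log2 fold change -0.27, adjusted p = 0.297). *Nr4a1* (Nur77), which reports TCR signals, was at 42.3 and 27.0 TPM in DN3a and 37.3 and 28.7 TPM in DN3b cells (log2 fold change -0.047, adjusted p = 0.865). Both were near 0 in *Rag2*-/- DN3a cells, with 0.547 and 0.997 TPM of *Egr1* and 0 and 0.124 TPM of *Nr4a1*. The wild-type stages overlapped at both genes and lay above both *Rag2*-/- libraries. *Nab2*, a corepressor of Egr factors and the other gene that rose, was at 0.295 and 0.0595 TPM in *Rag2*-/- DN3a, 17.0 and 17.8 TPM in DN3a and 22.0 and 21.0 TPM in DN3b cells (adjusted p up to 0.186 with 1 library left out). Of the AP-1 genes, *Fos* was at 92.0 and 0.492 TPM in the 2 DN3a and 0.517 and 0 TPM in the 2 DN3b libraries (adjusted p = 0.0811). *Junb* was at 821 and 74.7 TPM in DN3a and 63.7 and 53.1 TPM in DN3b cells (adjusted p = 0.0911), so that both were high in DN3a replicate 1 alone. *Jun* fell from 409 and 56.8 to 16.6 and 10.8 TPM (adjusted p up to 0.0517 with 1 library left out), and without DN3a replicate 1 its log2 fold change was -2.08 instead of -3.50. *Egr2*, a further factor induced by the pre-TCR, fell from 3.49 and 3.32 to 1.02 and 1.08 TPM.

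**Figure D4:**
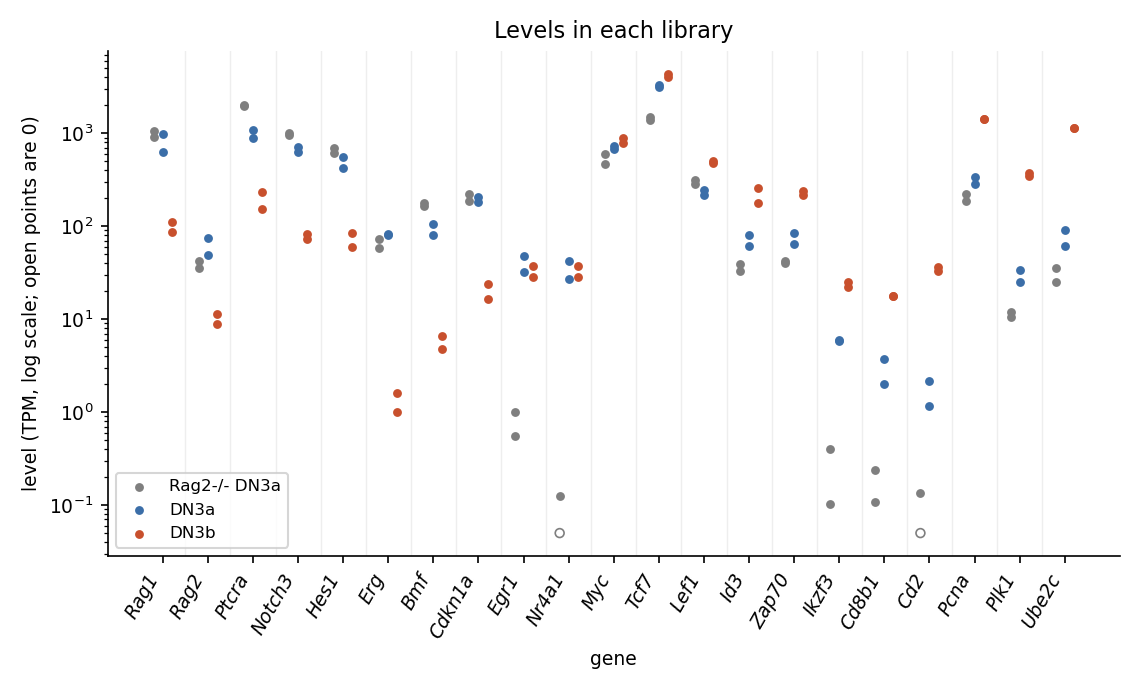
Each point is the level of a gene in 1 library (y axis, TPM on a log scale, open points are 0), for *Rag2*-/- DN3a, DN3a and DN3b cells with 2 libraries each. *Rag1* to *Cdkn1a* are lower in both DN3b libraries, *Egr1* and *Nr4a1* overlap between DN3a and DN3b, and *Zap70* to *Ube2c* are higher in both DN3b libraries.

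More transcription factors of the T cell lineage fell than rose, as among all genes tested. Of 28 tested, 7 rose and 19 fell (after rescaling, 8 rose and 14 fell). Over all genes tested, 20.5% rose and 49.9% fell (after rescaling, 31.4% and 36.6%). *Tcf7* and *Lef1*, the HMG box factors of T cell specification, both rose. *Tcf7* was at 3269.9 and 3113 TPM in DN3a and 4375 and 4057 TPM in DN3b cells (log2 fold change 0.40, adjusted p up to 0.0752 with 1 library left out), and *Lef1* was at 244 and 217 TPM in DN3a and 478 and 501 TPM in DN3b cells (log2 fold change 1.09). *Bcl11b*, the commitment factor, fell from 511 and 457 to 242 and 235 TPM, and *Gata3* was at 212 and 174 TPM in DN3a and 220.2 and 172 TPM in DN3b cells with overlapping libraries (adjusted p = 0.929). *Ikzf3* (Aiolos) rose from 6.04 and 5.81 to 25.0 and 22.2 TPM and *Ikzf1* (Ikaros) from 248 and 236 to 324 and 306 TPM (adjusted p up to 0.0535 with 1 library left out), whereas *Ikzf2* (Helios) fell from 18.9 and 18.6 to 8.33 and 7.03 TPM. *Runx1* and *Myb* fell by 1.36 and 1.30 on the log2 scale. Of 6 E proteins and Id proteins, 1 rose and 4 fell (after rescaling, 2 rose and 4 fell). Of the E proteins, which drive *Rag* and *Ptcra* expression, *Tcf12* (HEB) fell from 263 and 286 to 148 and 151 TPM and *Tcf3* (E2A) was at 374 and 356 TPM in DN3a and 442 and 381 TPM in DN3b cells (adjusted p = 0.138). Their inhibitors moved apart, as *Id3* rose while *Id2* fell from 22.3 and 28.7 to 3.92 and 6.65 TPM.

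Factors of multipotent progenitors fell further in DN3b cells. Of 16 factors, 6 had no library above 1 TPM, among them *Tal1*, *Gata2* and *Meis1*. Of the 10 tested, 8 fell on both scales and 1 rose. For comparison, 49.9% of all genes tested fell and 20.5% rose (after rescaling, 36.6% fell and 31.4% rose). *Erg* and *Mycn* were described above, and *Nfe2* fell from 90.1 and 75.9 to 3.49 and 2.84 TPM (log2 fold change -4.67, SE 0.15, adjusted p = 1.3e-05). *Spi1*, which encodes PU.1, fell from 6.68 and 5.54 to 1.44 and 0.965 TPM and *Bcl11a* from 10.3 and 12.6 to 3.26 and 3.07 TPM. *Gfi1b*, a repressor of erythroid and megakaryocytic cells, rose from 1.02 and 2.15 to 5.63 and 5.90 TPM. Beside these, the myeloid marker *Lyz2* fell from 50.6 and 46.8 to 1.61 and 0.933 TPM. The NK marker *Nkg7*, a granule protein, fell from 271 and 246 to 6.82 and 14.4 TPM, and the epithelial adhesion molecule *Epcam* fell from 148 and 172 to 21.5 and 27.3 TPM. *Pecam1*, an adhesion molecule of endothelium, fell from 152 and 128 to 56.6 and 50.3 TPM. Summed over each whole list, myeloid markers were at 66.2 and 56.7 TPM in DN3a and 7.36 and 5.69 TPM in DN3b cells, and stromal markers at 303 and 301 against 78.7 and 78.1 TPM. NK markers summed to 454 and 402 against 574 and 582 TPM, with *Gzma* at 182 and 155 TPM in DN3a and 567 and 568 TPM in DN3b cells, *Prf1* below 1 TPM, and *Ncr1* and *Klrd1* at 0 in all 4 libraries. B cell markers summed to 169 and 170.2 against 28.3 and 28.1 TPM, nearly all of it *Cd79b* in DN3a cells. Dendritic markers summed to 44.4 and 40.7 against 49.7 and 48.6 TPM, and erythroid markers to no more than 3.70 TPM in any library. Of the listed markers, *Pax5*, *Csf1r* and *Krt5* were below 1 TPM in all 4 libraries, while *Lyz2*, *Nkg7*, *Epcam* and *Pecam1* were above it in both DN3a libraries. The part of such cells in the results was not tested.

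Genes known from the DP stage went both ways. Of 9 tested, 4 rose and 5 fell (after rescaling, 4 rose and 4 fell), beside 20.5% and 49.9% of all genes tested. *Cd8b1* rose from 3.69 and 2.03 to 17.9 and 17.7 TPM and *Cd8a* rose slightly, at 2.59 and 1.57 TPM in DN3a and 4.32 and 3.43 TPM in DN3b cells (adjusted p = 0.0339, adjusted p up to 0.174 with 1 library left out), in cells that were sorted as CD8a negative. *Cd4*, also excluded by the sort, was at 2.08 and 2.55 TPM in DN3a and 1.26 and 0.911 TPM in DN3b cells (adjusted p up to 0.102 with 1 library left out). *Aqp11*, a water channel, fell from 746 and 765 to 204 and 219 TPM and *Arpp21* from 197 and 186 to 86.8 and 83.1 TPM. Of the genes of gamma delta T cells, *Etv5*, an ETS factor, rose from 3.58 and 2.71 to 37.6 and 31.8 TPM and *Maf*, a factor of effector programs, fell from 8.59 and 9.99 to 1.84 and 1.85 TPM. Of 10 such genes, 5 did not exceed 1 TPM, and of the 5 tested, 1 rose and 2 fell (after rescaling, 1 rose and 1 fell).

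Receptors of cytokines and their feedback inhibitors fell almost throughout. Of 18 genes, 17 fell, none rose and 1 was not called (after rescaling, none rose and 14 fell), with 9 past the thresholds of the study and a median log2 fold change of -1.49. *Il7r*, the receptor chain that supports survival before beta-selection, fell from 81.0 and 84.3 to 35.8 and 27.6 TPM (log2 fold change -1.39, SE 0.14, adjusted p = 0.000178) and *Il2rg*, its partner, from 448 and 432 to 189 and 194 TPM. Feedback inhibitors that STAT factors induce fell as well. *Cish* went from 94.9 and 98.8 to 3.82 and 5.31 TPM and *Socs3* from 136 and 164 to 10.5 and 12.9 TPM. *Ifngr1*, a chain of the interferon gamma receptor, fell from 749 and 765 to 78.6 and 73.1 TPM, while its partner *Ifngr2* was lower on TPM only, at 30.5 and 21.6 TPM in DN3a and 15.9 and 17.5 TPM in DN3b cells (adjusted p = 0.0182, and 0.189 with median-of-ratios scaling, adjusted p up to 0.134 with 1 library left out). *Kit*, the receptor of stem cell factor, fell from 36.4 and 37.0 to 13.0 and 10.4 TPM. Among 16 receptors of homing and adhesion, 11 fell and 2 rose (after rescaling, 4 rose and 10 fell). Beside each list of this paragraph, 49.9% of all genes tested fell and 20.5% rose (after rescaling, 36.6% fell and 31.4% rose). Past the thresholds, 9.82% of all genes tested fell. *Cxcr4*, which cooperates with the pre-TCR, fell from 419 and 459 to 233 and 268 TPM. The tetraspanins went apart, with *Cd81* higher at 6.74 and 9.67 against 58.4 and 55.8 TPM and *Cd9* lower at 16.7 and 17.8 against 5.59 and 6.03 TPM. The integrin chain *Itgae*, which binds epithelial cadherin, fell from 7.93 and 9.16 to 0.605 and 0.370 TPM (log2 fold change -3.90). Of 12 costimulatory receptors, 9 fell and 2 rose (after rescaling, 2 rose and 9 fell), and *Cd27* went from 517 and 470.4 to 218 and 177 TPM. Of 7 Gimap GTPases of lymphocytes, 6 fell and none rose (after rescaling, none rose and 5 fell), including *Gimap6* from 154 and 129.7 to 49.1 and 38.0 TPM.

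In the Bcl2 family, inhibitors and promoters of apoptosis alike were among the genes that fell. Of 13 members of the Bcl2 family, 6 fell and 2 rose (after rescaling, 2 rose and 6 fell), shares near the 49.9% and 20.5% of all genes tested. *Bcl2*, an inhibitor of apoptosis, fell from 76.0 and 70.3 to 19.6 and 16.9 TPM and *Mcl1* from 231 and 229 to 75.4 and 87.0 TPM. The death-promoting *Bmf* fell from 79.9 and 106 to 6.60 and 4.72 TPM (log2 fold change -4.02, SE 0.20, adjusted p = 2.0e-05), *Bbc3* (Puma) from 26.3 and 19.6 to 6.63 and 5.19 TPM and *Bcl2l11* (Bim) from 32.6 and 39.3 to 14.0 and 19.3 TPM (adjusted p up to 0.0702 with 1 library left out). By contrast, *Bid* rose from 37.9 and 39.6 to 147 and 183 TPM and *Bax* from 154 and 140.4 to 254 and 254 TPM. *Bcl2l1*, whose product Bcl-xL protects DP cells, was at 49.5 and 47.8 TPM in DN3a and 43.8 and 36.5 TPM in DN3b cells and was not called (adjusted p = 0.0689). Of 18 p53 targets, 12 fell and 2 rose (after rescaling, 3 rose and 11 fell), beside 49.9% and 20.5% of all genes tested. Beside *Cdkn1a*, *Trp53inp1* fell from 113 and 124 to 18.5 and 13.9 TPM, and the rises were *Bax* and *Aen*.

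The level of these groups in earlier stages was taken from the LMPP, DN1, DN2a and DN2b libraries, as a description. Summed over the mitosis list, transcripts were at 3937 to 5542 TPM in DN2b, 1504 and 1914 TPM in DN3a and 9106 and 9626 TPM in DN3b cells, so that DN3b lay above every earlier stage and DN3a had the lowest mean, with libraries that overlapped those of DN2a at 1908 to 2896 TPM. The DNA replication list was highest in DN3b as well, with 8519 to 10496 TPM in DN2b, 5215 and 5928 TPM in DN3a and 13059.6 and 13226 TPM in DN3b cells. Ribosome biogenesis genes were highest in DN3b too, with 10089.9 and 10574 TPM, but not lowest in DN3a, since their sum lay between 4699.8 and 5719.8 TPM from LMPP to DN2b and was at 6388 and 6718 TPM in DN3a. The pre-TCR and CD3 chains peaked in DN3a cells, from 1324 to 2392 TPM in DN2b over 9574 and 10282 TPM in DN3a to 2460.3 and 2851 TPM in DN3b cells. The summed progenitor factors were lower at each successive stage without overlap, from 3608 and 4060.4 TPM in LMPP over 579.5 to 836 TPM in DN2b and 235 and 229 TPM in DN3a to 19.2 and 18.3 TPM in DN3b cells. Of the genes past the thresholds that fell, 766 (64.9%) had their highest mean in DN3a, against 38.7% of all genes tested. Of those that rose, 290 (86.6%) had it in DN3b, against 21.5%. The DN3a and DN3b values chose these genes, so both shares are a description.

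**Figure D5:**
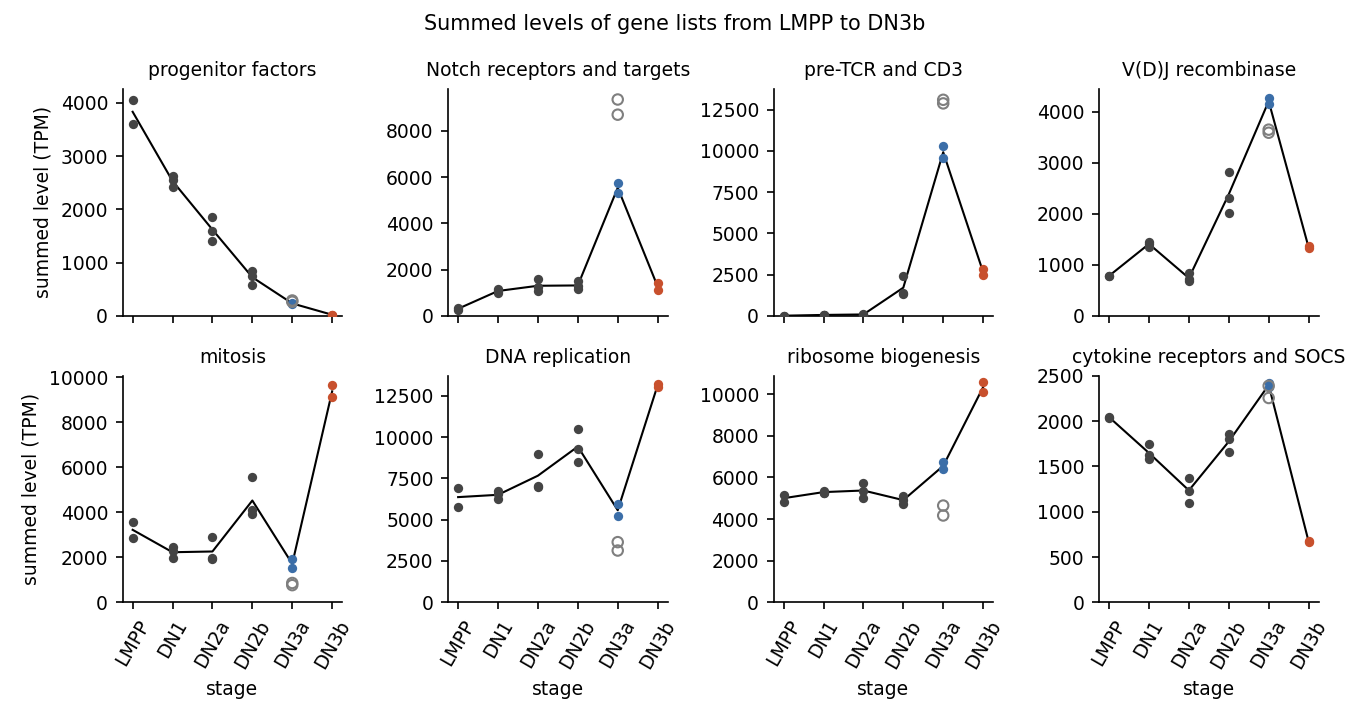
Each panel gives the summed TPM of 1 gene list (y axis, from 0) in every library from LMPP to DN3b (x axis), with a line through the means, 2 libraries each of LMPP, DN3a and DN3b and 3 each of DN1, DN2a and DN2b, and open circles for *Rag2*-/- DN3a. Mitosis is at 9106 and 9626 TPM in DN3b with its lowest mean in DN3a, and the pre-TCR and CD3 chains are highest in DN3a.

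DN3a cells of *Rag2*-/- mice, which cannot form a pre-TCR, were used in place of the wild-type DN3a cells as a second reference. The *Rag2* symbol itself was listed at 35.5 and 42.2 TPM in these libraries, so that the gene level does not show the deletion. Against them, 712 genes rose and 1143 fell past the thresholds (6.01% and 9.65% of 11847 genes tested). Both comparisons use the same DN3b libraries and are therefore given side by side only. Listed myeloid markers summed to 80.5 and 121.7 TPM and stromal markers to 289 and 316 TPM in *Rag2*-/- DN3a cells. The myeloid marker *C1qa* was at 2.07 and 11.1 TPM there and the stromal marker *Krt8* at 0.842 and 5.49 TPM. Both were below 1 TPM in every wild-type DN3a and DN3b library. The part of such cells in this reference was not tested. The median log2 fold change of mitosis genes was 3.89 against *Rag2*-/- and 2.51 against wild-type DN3a cells, and that of DNA replication genes was 2.25 and 1.28. For Notch receptors and targets it was -3.11 and -1.65. For the signal-induced genes it was 0.27 and -1.32, so that the sign differed with the reference. *Mki67* was at 4.29 and 3.91 TPM in *Rag2*-/- DN3a cells, *Cd2* at 0 and 0.134 TPM, *Ikzf3* at 0.103 and 0.406 TPM and *Cd8b1* at 0.240 and 0.108 TPM, below both wild-type DN3a libraries at each of these genes. *Ptcra* was at 2000.0 and 1952 TPM and *Dtx1* at 1443 and 1239.6 TPM in *Rag2*-/- cells, above both wild-type DN3a libraries at both genes.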

How the data were processed

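Poly(A) RNA of sorted progenitors was sequenced by the authors, aligned to mm9 with TopHat 1.4.1 and deposited per library as TPM over RefSeq genes. Each deposited file holds 2 unlabelled TPM values per gene, recorded here as a score because their sum exceeds that of 1 TPM table, and their mean was used. An entry of exactly 1 was read as 0. The submitters' processing notes also name Bowtie 1.0.0, SAMtools 1.9 and STAR 2.4.2a. No read counts were used, so the depth per library and its precision are unknown. Two-sided limma 3.58.1 (eBayes with trend, R 4.3.3) was run on log2(TPM + 0.1) for genes above 1 TPM in at least 1 of the 4 libraries, with Benjamini-Hochberg adjustment over all genes tested, a threshold of 0.05 and the fold (3) and mean (5 TPM) thresholds of the study's methods. Named were the 15 largest and 15 smallest log2 fold changes past these thresholds without overlap between stages, and members of gene lists, which were chosen with earlier results of these data known. The TCR segments and other families counted by symbol, and members such as *Trbv1* and *Trbj1-7*, were chosen after their values were seen. The 17 alternatives changed the pseudocount, filter, scaling, spread, value used, entries of 1, samples, controls or replicate number, or left out 1 library. A few members of the lists are counted but not reported by name here.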

Additional observations from a re-analysis of the deposited data

How the results depend on the processing

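Of 17 alternatives, the other scalings and the *Rag2*-/- controls moved a count of changed genes by over 1.5 times. Genes called higher numbered 3778 with median-of-ratios scaling and 3910 with quantile normalization, and genes called lower 3716 with the latter. Past the thresholds of the study, 512 and 510 were higher and 784 and 638 lower with these scalings, and 712 were higher with *Rag2*-/- controls. Leaving out 1 library gave 1699 to 2179 higher and 4228 to 5592 lower genes, and 307 to 349 and 1120 to 1235 past the thresholds, where a lone library was assumed to vary like the other stage. With the replicate number as a block, 2701 were higher and 6308 lower, and 337 and 1185 past the thresholds, but the deviations of same-numbered libraries correlated with r = -0.017 over all genes tested and 0.22 over those with a mean above 5 TPM, and the labels do not pair them. Of the values of 182 named genes over the alternatives, 2954 kept their direction and side of the threshold, 92 lost a call, 18 gained one and 21 changed sign.

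With median-of-ratios scaling, the log2 fold change was 0.038 for *Bcl2l1*, 0.049 for *Egr1*, 0.27 for *Nr4a1* and 0.037 for *Smc4*. With quantile normalization, the log2 fold change was 0.045 for *Bcl2l1*, 0.089 for *Egr1*, -0.025 for *Gata3*, 0.34 for *Nr4a1* and -0.016 for *Uhrf1*. With *Rag2*-/- controls, the log2 fold change was 5.27 for *Egr1*, 1.98 for *Egr2*, 0.086 for *Ifngr2*, 7.78 for *Nr4a1*, -0.24 for *Nrarp* and 0.47 for *Smc4*. With 1 library left out, the log2 fold changes ranged from -0.57 to 0.027 for *Egr1* (sign turned without DN3a replicate 1), -0.16 to 0.20 for *Gata3* (sign turned without DN3a replicate 2 and without DN3b replicate 1), -0.37 to 0.28 for *Nr4a1* (sign turned without DN3a replicate 1 and without DN3b replicate 2) and -0.033 to 0.24 for *Slc2a1* (sign turned without DN3a replicate 2).

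Medians of lists were followed relative to the median of all genes, and 18 of their values changed sign. With *Rag2*-/- controls, the difference of the medians was 0.15 for TCR signalling inhibitors, 0.46 for signal-induced genes, 0.80 for gamma delta lineage genes, -0.035 for CDK inhibitors, -0.49 for Bcl2 family and -0.070 for erythroid markers. With a filter above 5 TPM, the difference of the medians was -0.58 for CDK inhibitors, -0.76 for Bcl2 family and 0.45 for dendritic markers. With quantile normalization, the difference of the medians was -0.24 for Bcl2 family and 0.13 for dendritic markers. With the lower of the deposited values, the difference of the medians was -0.29 for Bcl2 family and -0.067 for erythroid markers. With a pseudocount of 1, the difference of the medians was 0.016 for dendritic markers. With 1 library left out, the differences of the medians ranged from -0.26 to 0.17 for gamma delta lineage genes (sign turned without DN3a replicate 1), -0.46 to 0.27 for Bcl2 family (sign turned without DN3b replicate 1), -0.73 to 0.0041 for dendritic markers (sign turned without DN3b replicate 2) and -0.43 to 1.02 for erythroid markers (sign turned without DN3b replicate 1). No erythroid marker was left by the filter above 5 TPM. The cause of these shifts was not tested. Without depth, differences at genes near 1 TPM cannot be separated from counting error.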
